A study of Mus musculus with 12 samples.

Results

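Aard, Mro, Cst9, Ptgds, Tesc, Gstm6, Mt3, Etd, Siglece and Spp1 were followed in single-cell transcriptomes of fetal mouse gonads. They are 10 genes, of 32285 in the files, that were picked by symbol because they were enriched in Sertoli cells of the XY WT libraries, with Sox9, Amh and Dhh set apart. Their high level in the XY WT libraries is therefore the reason for their choice and not a result, and comparisons that use those libraries are given as values only. Gonads were collected at E12 (23 ± 3 tail somites) from XX and XY embryos of 3 genotypes, with 2 libraries in each of the 6 groups. The genotypes were wild type (WT), -KTS KO, homozygous for a Wt1 allele that cannot make the -KTS variant of the zinc-finger factor WT1, and +KTS KO, homozygous for an allele that cannot make the +KTS variant. Both alleles are constitutive and act in the whole body, the lines were kept on the mixed background B6CBAF1/JRj, and gonads of several embryos were pooled for the -KTS KO libraries. Wt1 was read at 156 to 308 CPM (UMIs of the gene per 1000000 UMIs of the cells) in every library, but UMIs of the 3' end do not tell the variants apart, so that Wt1 itself does not check the genotype labels. The sex labels matched in 12 libraries, with Xist at 535 to 748 CPM in XX and at most 0.157 CPM in XY gonadal somatic cells.

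Sertoli cells are the supporting cells of the testis. They arise when the Y-linked factor SRY raises SOX9 in the bipotent supporting precursors, and they then enclose the germ cells in cords and secrete anti-Müllerian hormone. In the ovary the same precursors become pre-granulosa cells, which express Foxl2 and Fst. WT1 is needed in the early gonad of both sexes, and its isoforms differ by the amino acids lysine, threonine and serine between zinc fingers.

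The genes have little in common in function. Ptgds encodes the lipocalin-type prostaglandin D2 synthase, and prostaglandin D2 is known to support Sox9 expression in the fetal testis. Spp1 encodes osteopontin and Cst9 encodes a protein of the cystatin family, both secreted. Siglece encodes a sialic acid-binding lectin receptor that is best known from myeloid cells. Tesc encodes an EF-hand calcium-binding protein, Mt3 a metallothionein and Gstm6 a mu-class glutathione transferase. Mro encodes a nucleolar protein, and Aard and Etd are genes of little known function. In the GENCODE annotation of GRCm38 all 10 are protein coding and lie apart, on chromosomes 2 (Cst9 at 148835147-148838738, plus strand, and Ptgds at 25466709-25470046, minus strand), 3 (Gstm6 at 107938847-107943749, minus strand), 5 (Spp1 at 104435118-104441050 and Tesc at 118027743-118061878, both plus strand), 7 (Siglece at 43651070-43660161, minus strand), 8 (Mt3 at 94152607-94154146, plus strand), 15 (Aard at 52040107-52045722, plus strand), 18 (Mro) and X (Etd at 53434918-53443576, plus strand). Gstm6 belongs to a family of related genes, so reads of shared sequence may have been lost or misplaced and its values are uncertain. This was not tested.

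RefSeq gave a promoter window for 8 of the 10 genes, with none for Aard and Mro. The 250 bases before the start were searched on both strands for AACAAT and ACAAAG (SOX type), AAGGTCA (NR5A1 type), GATAA (GATA type) and GCGGGGG (one WT1 type). ACAAAG was found in 3 of 8 windows, those of Cst9, Etd and Spp1, and in 16.5% of all 32851 windows of that length. GATAA was found in Cst9 and Etd and in 22.6% of all windows, and GCGGGGG in Tesc and in 9.63% of all windows. AACAAT (9.42% of all windows) and AAGGTCA (4.08%) were in none of the 8. A match is a run of letters and not a shown binding site. The windows with ACAAAG are printed because Cst9 and Spp1 share that word and went opposite ways in XX -KTS KO against XX WT, and the Siglece window because this gene, with none of the words, was higher in XX +KTS KO than in XX WT. They are written 5′ to 3′ on the strand of the gene, with matches in capitals. In GRCm38.p6 the windows lie at chr2:148834897-148835146 on the plus strand, chrX:53434668-53434917 on the plus strand, chr5:104434861-104435110 on the plus strand and chr7:43660162-43660411 on the minus strand, and they hold no annotated exon.
Cst9: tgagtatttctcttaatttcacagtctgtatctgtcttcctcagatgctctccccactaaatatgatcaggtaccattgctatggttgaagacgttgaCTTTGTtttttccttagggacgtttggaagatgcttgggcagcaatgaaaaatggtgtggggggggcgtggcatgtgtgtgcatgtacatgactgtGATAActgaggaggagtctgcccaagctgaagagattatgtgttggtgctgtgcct
Etd: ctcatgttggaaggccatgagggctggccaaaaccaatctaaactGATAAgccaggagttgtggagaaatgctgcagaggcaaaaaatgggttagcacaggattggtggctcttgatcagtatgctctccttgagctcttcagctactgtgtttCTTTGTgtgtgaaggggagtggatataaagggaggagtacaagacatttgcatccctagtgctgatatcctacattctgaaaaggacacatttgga
Spp1: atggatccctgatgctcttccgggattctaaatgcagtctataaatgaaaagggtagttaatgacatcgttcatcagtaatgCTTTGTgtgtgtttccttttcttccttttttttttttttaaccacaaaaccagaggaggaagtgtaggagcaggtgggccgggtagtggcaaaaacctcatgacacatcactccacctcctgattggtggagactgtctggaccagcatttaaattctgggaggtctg
Siglece: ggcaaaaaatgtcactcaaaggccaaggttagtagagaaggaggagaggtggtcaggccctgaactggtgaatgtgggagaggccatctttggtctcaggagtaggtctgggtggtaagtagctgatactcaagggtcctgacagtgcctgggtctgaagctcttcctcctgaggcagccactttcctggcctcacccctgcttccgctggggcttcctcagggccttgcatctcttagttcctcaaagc

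The 12 libraries held 103730 barcodes and 108111924 to 147968666 UMIs each. Of the 76976 cells kept after quality and doublet filters, 66445 were gonadal somatic cells, set apart by fixed markers from germ, endothelial, immune, erythroid, perivascular and mesonephric duct cells. Levels are CPM of all UMIs of the gonadal somatic cells of a library, which numbered 4197 to 7700 cells and 56318161 to 99625253 UMIs. A single UMI was therefore a small fraction of 1 CPM, and intervals quoted from UMI numbers cover counting error only. A change of such a sum can come from fewer cells with the RNA or from less RNA per cell, and the sums cannot tell these apart. Of the kept barcodes, 740 occurred in more than 1 library, at most 0.389% of the smaller library of any pair. XX -KTS KO replicate 2 held more germ cell marker RNA in its somatic cells (6 markers, none at 0, 71.0 CPM summed) than the other libraries (9.00 to 40.2 CPM), and XY +KTS KO replicate 1 stood apart from its partner for several of the genes, as described below.

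In the XY WT libraries, Spp1 was at 309 and 415 CPM, Aard at 516 and 444, Cst9 at 348 and 441, Ptgds at 294 and 127, Tesc at 286 and 197 and Gstm6 at 151 and 107 CPM. Mt3 was at 77.4 and 53.1, Siglece at 23.2 and 29.4, Etd at 17.2 and 26.7 and Mro at 16.7 and 25.03 CPM. The 10 other libraries were lower for each gene but Mro, whose highest XY -KTS KO library (17.5 CPM) exceeded the lower XY WT library. Expressed as a share of the XY WT mean, the median gene stood at 2.97% in XX WT, 0.588% and 0.801% in the XX and XY -KTS KO and 4.25% and 5.85% in the XX and XY +KTS KO. In both -KTS KO sexes 2 genes stood above 10% of the XY WT mean, Mro (56.9% in XX and 79.4% in XY) and Spp1 (13.6% in XX and 39.6% in XY). In XY +KTS KO 3 genes did so, Ptgds (32.5%), Mt3 (12.8%) and Siglece (11.05%), and in XX +KTS KO 1, Ptgds (10.3%). Ptgds and Mt3 did so through replicate 1 of these groups only, so that 1 gene, Siglece, would be left in XY +KTS KO by replicate 2, where Ptgds was at 15.8 CPM and Mt3 at 2.86 CPM against XY WT means of 210.2 and 65.3 CPM.

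**Figure D1:**
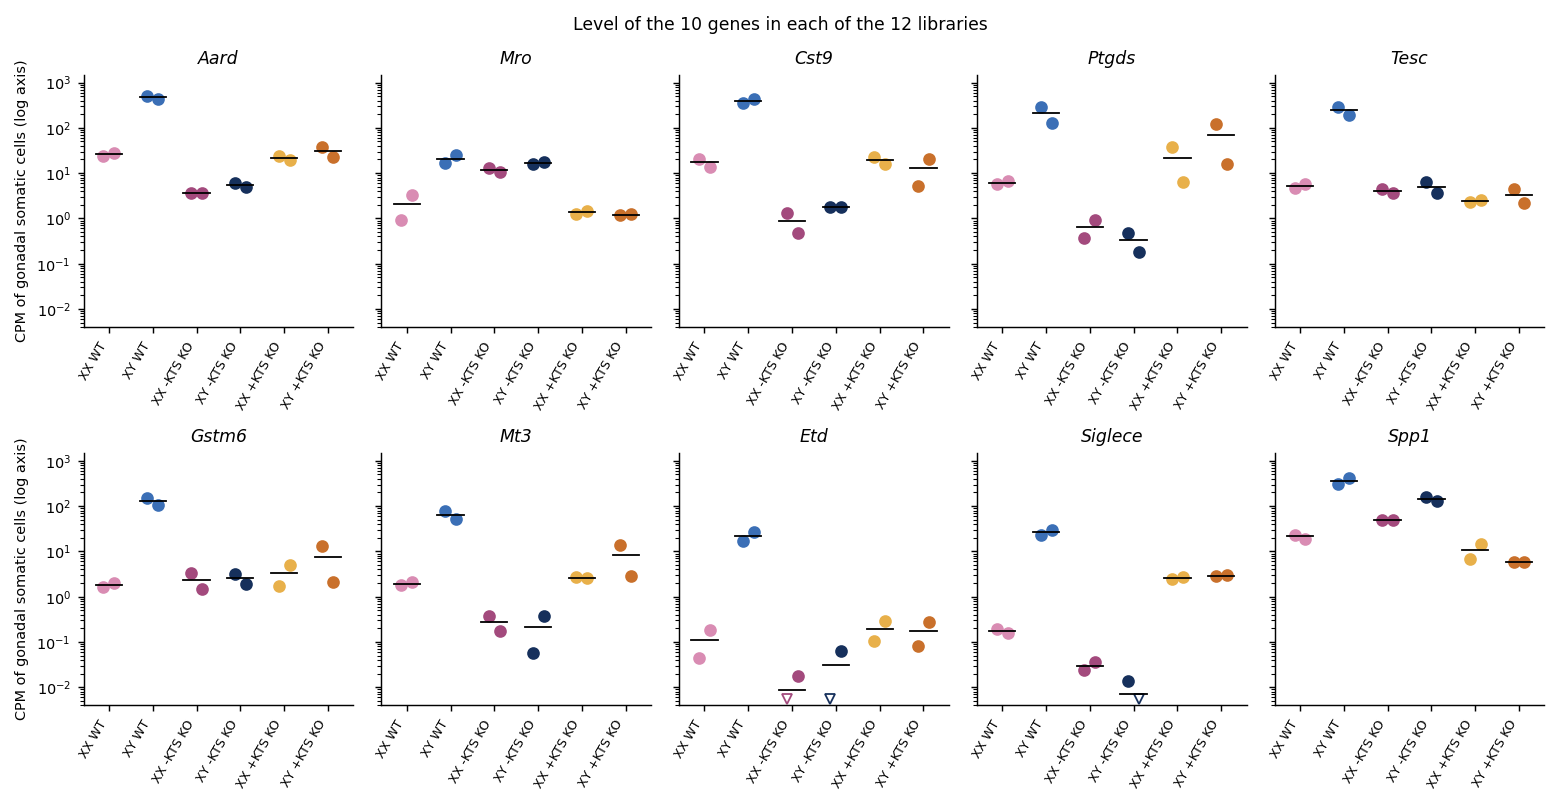
Level of each gene in CPM of the gonadal somatic cells (log axis) in the 12 libraries. Points are libraries, bars are the mean of 2, and open triangles at the foot of the axis mark a library with no UMI. Mro and Spp1 are high in the -KTS KO groups, where Ptgds, Mt3 and Siglece lie below 1 CPM, while Siglece sits between 2.52 and 2.99 CPM in all 4 +KTS KO libraries.

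Outside XY WT the genes did not move together. Mro was high in -KTS KO of both sexes and low in +KTS KO, at 0.924 and 3.24 CPM in XX WT, 13.3 and 10.5 for XX -KTS KO, 15.7 and 17.5 for XY -KTS KO, 1.27 and 1.46 for XX +KTS KO and finally 1.16 and 1.28 for XY +KTS KO. Spp1 was ordered alike by genotype, with 23.6 and 19.2 CPM in XX WT, 50.2 and 48.2 for XX -KTS KO, 158 and 128 for XY -KTS KO, 6.85 and 14.3 for XX +KTS KO and finally 5.93 and 5.96 for XY +KTS KO. No 2 neighbouring groups in the order of Spp1 levels overlapped, whereas the ranges of Mro overlapped between XY WT and XY -KTS KO and among XX WT, XX +KTS KO and XY +KTS KO.

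Aard, Cst9, Ptgds, Mt3 and Siglece had their lowest levels in -KTS KO. Aard was at 23.5 and 28.1 CPM in XX WT, 3.59 and 3.57 for XX -KTS KO, 6.05 and 5.01 for XY -KTS KO, 23.3 and 19.2 for XX +KTS KO and finally 37.7 and 23.1 for XY +KTS KO. Cst9 was at 20.7 and 13.9 CPM in XX WT, 1.30 and 0.479 for XX -KTS KO, 1.75 and 1.81 for XY -KTS KO, 22.9 and 15.7 for XX +KTS KO and finally 5.197 and 20.2 for XY +KTS KO. For both genes the -KTS KO libraries lay below all others, and Cst9 overlapped among XX WT and both +KTS KO groups.

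Ptgds was at 5.66 and 6.76 CPM in XX WT, 0.373 and 0.941 for XX -KTS KO, 0.475 and 0.186 for XY -KTS KO, 37.0 and 6.42 for XX +KTS KO and finally 121 and 15.8 for XY +KTS KO. Mt3 was at 1.82 and 2.08 CPM in XX WT, 0.385 and 0.178 for XX -KTS KO, 0.0559 and 0.384 for XY -KTS KO, 2.74 and 2.56 for XX +KTS KO and finally 13.9 and 2.86 for XY +KTS KO. The first +KTS KO library of each sex was far higher for Ptgds than the second, and the same held for Mt3 in XY only. Siglece had 13 and 14 UMIs in XX WT (0.194 and 0.160 CPM), 2 and 2 for XX -KTS KO, 1 and 0 for XY -KTS KO, 242 and 225 for XX +KTS KO (2.52 and 2.71 CPM) and 211 and 298 in XY +KTS KO (2.82 and 2.99 CPM). The +KTS KO libraries lay above XX WT and these above -KTS KO, where 3 or fewer UMIs a library are at the floor.

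Tesc and Gstm6 showed no such split outside XY WT. Tesc ran from 2.22 to 6.32 CPM over the 10 other libraries and its neighbouring groups overlapped. Gstm6 ran from 1.49 to 4.95 CPM except in XY +KTS KO replicate 1, at 13.0 CPM. Etd had 0 to 27 UMIs in any of these libraries, at most 0.290 CPM, and only 4 of them held 10 or more UMIs. Its lowest groups were also those of -KTS KO, with 1 UMI in XX -KTS KO against 19 in XX WT (a ratio of 17.1, exact 95% interval 2.72 to 712) and 5 in XY -KTS KO against 33 in XY +KTS KO (5.76, 2.23 to 18.9), but neighbouring groups overlapped. The 5 UMIs of XY -KTS KO all lay in 1 cell of replicate 2, so the last interval treats as independent UMIs that were not.

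Gonads without -KTS were compared with XX WT in gonadal somatic cells to see whether the genes depend on -KTS where no testis forms. In XX -KTS KO 4 genes fell and 2 rose. Cst9 fell by 4.17 ± 0.68 (SE) on the log2 scale, Aard by 2.79 ± 0.23, Mt3 by 2.66 ± 0.79 and Siglece by 2.48 ± 0.46, while Mro rose by 2.57 ± 0.43 and Spp1 by 1.26 ± 0.28. In edgeR's quasi-likelihood test, adjusted by Benjamini-Hochberg over 17751 genes, p was 0.00348 for Cst9, 0.000198 for Aard, 0.0470 for Mt3, 0.00625 for Siglece, 0.004003 for Mro and 0.0143 for Spp1. Over all genes 16% were called, 6.68% higher and 9.33% lower, and the median gene moved by 0.01 where the median of the 10 was -2.57. Ptgds (-3.24 ± 1.13, adjusted p = 0.0808) and Etd (-3.72 ± 1.58, adjusted p = 0.144) did not pass, nor did Tesc (-0.25 ± 0.34) and Gstm6 (0.49 ± 0.74). Siglece rested on 27 UMIs against 4, a ratio of 6.09 with an exact 95% interval of 2.12 to 23.9. This interval is wider than its standard error implies.

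These calls rest on 2 libraries a group, and Mt3 was past the threshold in 5 of 12 alternatives. Mt3 and Spp1 missed the threshold when any 1 of the 4 libraries was left out, with adjusted p from 0.128 to 0.219 for Mt3 and from 0.0535 to 0.107 for Spp1, and Siglece missed it without XX -KTS KO replicate 1 (adjusted p = 0.0792). The fold of Mro, past the threshold in 12 of 12 alternatives, ranged from 1.96 without XX WT replicate 1 to 3.71 without XX WT replicate 2, and Cst9 was at -5.13 without XX -KTS KO replicate 1. Ptgds passed by DESeq2 (adjusted p = 0.0170) and with no filter on low counts (adjusted p = 0.00894). Aard kept its fold in cells without a UMI of any germ or immune marker (-2.73, adjusted p = 0.000210) but was -1.22 over all kept cells, germ cells included (adjusted p = 0.114).

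Loss of +KTS was compared with XX WT in the same way. Siglece rose by 3.92 ± 0.27 on the log2 scale (edgeR, adjusted p = 0.000232), and was the only gene of the 10 that passed, where 4.94% of all genes were called and 2.28% were higher. Both XX +KTS KO libraries (242 and 225 UMIs) lay above both of XX WT (13 and 14), and 2.66% of all genes were lower. Immune marker RNA was also higher in the XX +KTS KO somatic cells, at 2.42 to 2.73 CPM summed over 7 markers with none at 0, against 0.343 to 1.04 CPM with 1 marker at 0 in XX WT. In somatic cells without a UMI of any of these markers Siglece remained at 2.52 and 2.74 CPM in XX +KTS KO against 0.180 and 0.161 CPM in XX WT. Among the genes that did not pass, Ptgds was at 1.87 ± 0.95 (adjusted p = 0.349) with both libraries and at 0.05 without XX +KTS KO replicate 1, Tesc at -1.03 ± 0.35 (adjusted p = 0.139), Spp1 at -0.99 ± 0.28 (adjusted p = 0.0781) and Aard, Cst9, Mro, Mt3, Gstm6 and Etd between -0.58 and 0.91. Tesc (adjusted p = 0.0370) and Spp1 (adjusted p = 0.0106) passed by DESeq2, and Spp1 also without XX +KTS KO replicate 2 (-1.56, adjusted p = 0.0344).

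The direct comparison of XY +KTS KO with XY -KTS KO shows how the genes differ between loss of either variant in XY gonads. In XY +KTS KO 5 genes were higher and 2 lower, where 11.7% of all genes were higher and 9.81% lower (21.6% in all). Siglece was higher by 8.42 ± 0.42 on the log2 scale, Ptgds by 7.59 ± 1.30, Mt3 by 5.10 ± 0.80, Cst9 by 2.83 ± 0.63 and Aard by 2.38 ± 0.23. Spp1 was lower, at -4.65 ± 0.32, and so was Mro, at -3.81 ± 0.45. Adjusted p by edgeR was 5.98e-06 for Siglece, 0.00297 for Ptgds, 0.00190 for Mt3, 0.0105 for Cst9, 0.000121 for Aard, 2.17e-05 for Spp1 and 0.000410 for Mro. Siglece rested on 509 UMIs against 1, a ratio of 444 with an exact 95% interval of 79.3 to 17570. Its fitted fold depends on the prior count. Its standard error, derived from that fold and the test statistic, is far narrower than this interval and understates the uncertainty. Tesc (-0.66 ± 0.34), Gstm6 (1.46 ± 0.72) and Etd (2.40 ± 1.06) did not pass.

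Single libraries set part of these sizes. Without XY +KTS KO replicate 1 Ptgds was higher by 5.64 (adjusted p = 0.00715), Mt3 by 3.69 (adjusted p = 0.00302) and Cst9 by 3.55, and Gstm6 stood at -0.19. Without XY +KTS KO replicate 2 Cst9 was higher by 1.41 (adjusted p = 0.0418), Ptgds by 8.39, Mt3 by 5.80 and Gstm6 by 2.22 (adjusted p = 0.0207). Without XY -KTS KO replicate 1 Ptgds was higher by 8.41 and Mt3 by 4.35, and Siglece then had no UMI left in XY -KTS KO and no fold is given. Without XY -KTS KO replicate 2 Ptgds was higher by 7.002, Mt3 by 7.04 and Siglece by 7.47. Over all kept cells Siglece was higher by 6.01. Cst9 missed the threshold without either XY -KTS KO library (adjusted p = 0.0770 and 0.0704). Aard was at 1.02 over all kept cells (adjusted p = 0.139). Germ marker RNA in the somatic cells, summed over 6 markers with none at 0, was also higher in XY +KTS KO, at 18.6 to 25.2 CPM against 10.99 to 11.7 CPM in XY -KTS KO. In cells without a UMI of any germ or immune marker Aard was higher by 2.36 (adjusted p = 9.12e-05).

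**Figure D2:**
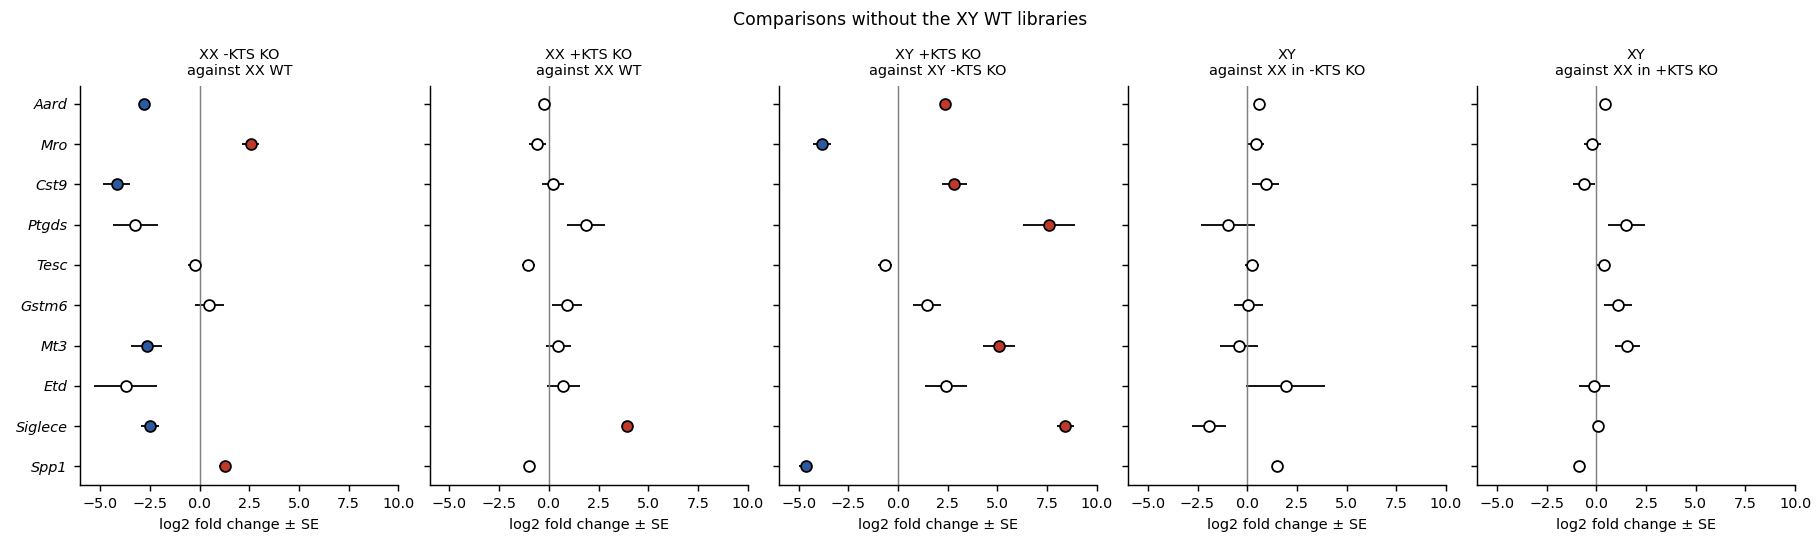
Fitted log2 fold change for each gene in the 5 comparisons that do not use the XY WT libraries. Error bars are standard errors derived from the fold change and the test's F statistic, which are too narrow for Siglece. Red points are higher and blue points lower at an adjusted p under 0.05 by edgeR, and open points did not pass. Mro and Spp1 lie opposite to Aard, Cst9, Mt3 and Siglece in XX -KTS KO against XX WT and in XY +KTS KO against XY -KTS KO.

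The sexes were then compared within each mutant genotype. No gene of the 10 passed by edgeR in -KTS KO or in +KTS KO, where 0.0338% of all genes did in each, that is 6 genes. By DESeq2, 1 gene of the 10 passed in -KTS KO and 0 in +KTS KO, where 18 and 31 of all genes did. That gene was Spp1, at 158 and 128 CPM in XY against 50.2 and 48.2 CPM in XX -KTS KO, a difference of 1.52 ± 0.28 on the log2 scale with an adjusted p of 0.428 by edgeR and 0.000189 by DESeq2. It passed as well with no filter on low counts (adjusted p = 0.00758) and over all kept cells (adjusted p = 0.0380). In +KTS KO Spp1 was at -0.87 ± 0.28, and the difference between these sex effects, 2.39 ± 0.40, had an adjusted p of 0.851 by edgeR and 6.43e-05 by DESeq2. Over all genes 0% passed this test of the difference by edgeR. Mt3 (1.55 ± 0.63) and Ptgds (1.51 ± 0.93) did not pass between XY and XX +KTS KO (adjusted p = 0.996 for both), and without XY +KTS KO replicate 1 Mt3 was at 0.14 and Ptgds at -0.45.

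The comparisons that use XY WT describe how the genes were chosen, and nothing is read from their counts, which the choice fixed. XY -KTS KO was lower than XY WT for 9 genes (23.5% of all genes were called and 12.4% lower), from -1.36 ± 0.28 for Spp1 to -9.39 ± 1.38 for Ptgds among those with at least 10 UMIs in XY -KTS KO, with Mro at -0.36 ± 0.40. XY +KTS KO was lower for 9 genes (12.4% of all genes called and 6.3% lower), from -3.12 ± 0.64 for Mt3 to -6.95 ± 0.76 for Etd, with Ptgds at -1.80 ± 0.93. XY WT was higher than XX WT for all 10 (13.6% of all genes called and 7.09% higher), from 3.38 ± 0.44 for Mro to 7.57 ± 0.79 for Etd. Etd had 3010 UMIs in XY WT against 5 in XY -KTS KO, and Siglece had 3627 against 1.

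Cells were next gated on other Sertoli genes to see which of them carried the RNA. Cells with at least 2 UMIs of Amh, the hormone gene of Sertoli cells, numbered 1367 and 632 in XY WT, 349 and 221 in XY +KTS KO and 354 and 121 in its XX counterpart, against 1 and 2 in XX WT and 0 in each -KTS KO library. In XY WT, 81.4% and 92.7% of them also had 2 or more UMIs of Sox9 and 1.02% and 0.791% had a UMI of the pre-granulosa gene Foxl2. In XY +KTS KO the Sox9 shares were 35.8% and 4.07% and the Foxl2 shares 53.3% and 29.9%, and in XX +KTS KO the Sox9 shares were 0.847% and 0.826% and the Foxl2 shares 30.5% and 24.8%. The shares are without thinning, and the Amh-positive cells are called by their gate only. Many lay close to the limit of the gate, with exactly 2 UMIs of Amh in 186 and 157 cells of XY WT, 125 and 105 of XY +KTS KO and 158 and 65 of XX +KTS KO.

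The genes were chosen for a high level in the Sertoli cells of XY WT, so the levels of the Amh-positive cells are set beside each other as a description. Aard was at 1969 and 1576 CPM in Amh-positive XY WT cells, 139 and 53.2 CPM in those of XY +KTS KO and 57.9 and 52.4 CPM in those of XX +KTS KO. Tesc was at 1066 and 677, then 24.8 and 4.44, then 5.44 and 5.79 CPM in the same order. Spp1 was at 829.6 and 774 CPM, then 23.4 and 13.03, then 14.01 and 37.2 CPM. Ptgds was at 1206 and 533 CPM, then 662 and 100.4, then 157 and 43.4 CPM, so that XY WT and XY +KTS KO overlapped. The 2 libraries of XY +KTS KO differed by over 2 times for Aard, Tesc and Ptgds, and those of XX +KTS KO for Spp1 and Ptgds. In cells thinned to 5000 UMIs each, the shares with a UMI in XY WT, XY +KTS KO and XX +KTS KO were 82.4%, 44.4% and 26.4% for Ptgds, 94.9%, 29.4% and 19.8% for Aard and 91.5%, 6.53% and 3.21% for Tesc. Without thinning the Ptgds shares were 91.2%, 60.6% and 43.3%. Endothelial cells, which should lack these genes, had a UMI in at most 5.51% of thinned cells in XY WT and at most 4.49% in the 10 other libraries. Their median depth was 13353 to 29651 UMIs per cell, against 10848 to 21034 in Amh-positive cells of the 3 groups. In the endothelial cells of +KTS KO itself no gene had a mean share above 1.32% in XY (Tesc) or 0.481% in XX (Aard). Mro, Etd and Siglece had no UMI there in 290 XY and 316 XX cells, which allows up to 1.03% and 0.949% of cells with a UMI. The shares of thinned Amh-positive cells were 0.226% in XY and 0.142% in XX for Etd, under these limits, 1.53% and 1.82% for Mro and 2.56% and 0.997% for Siglece.

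Also fixed in part by the choice of genes was their number per cell. A median of 7 and 6 of the 10 genes was detected in the thinned Amh-positive cells of the 2 XY WT libraries, and 91.9% and 87.5% of cells held 5 or more. The median was 1 in each +KTS KO library, and 5 or more were found in 4.23% and 0% of XY and 0% of XX +KTS KO cells. None of the 10 was detected in 18.2% and 42.5% of XY and 34.2% and 46.3% of XX +KTS KO cells. Thinning left out 27 Amh-positive cells in XY WT, 42 in XY +KTS KO and 3 in XX +KTS KO.

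**Figure D3:**
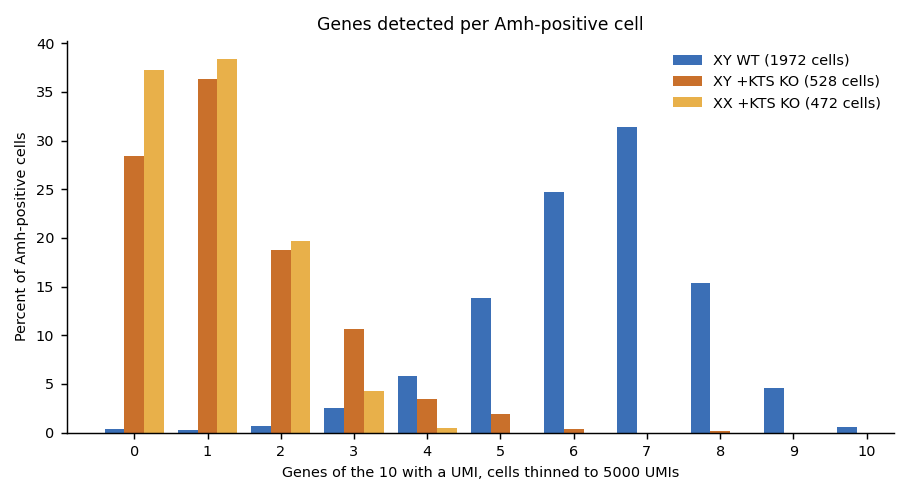
Share of Amh-positive cells (percent) by the number of the 10 genes with a UMI, after thinning each cell to 5000 UMIs, for both libraries of a group together. XY WT cells, for which the genes were chosen, peak at 7 genes, and +KTS KO cells of either sex at 1. In XX +KTS KO that peak is nearly level with 0 genes (181 against 176 cells).

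In the -KTS KO gonads, where no cell reached 2 UMIs of Amh, 189 and 243 XY cells and 118 and 38 XX cells had 2 or more UMIs of Sox9. In the XY cells Spp1 was at 731 and 393 CPM against 99.3 to 109 CPM in cells of the same libraries without Amh, Sox9 and Fst. Aard was at 24.5 CPM in both libraries against 3.48 to 4.69, Cst9 at 14.5 and 16.2 against 0.772 to 0.841, Mro at 57.2 and 34.6 against 11.98 to 14.8 and Tesc at 36.5 and 13.3 against 2.76 to 4.03 CPM. Ptgds was at 4.56 and 1.43 against 0.0606 to 0.223 CPM, on 16 and 7 UMIs, and Gstm6 at 11.7 and 5.32 against 1.68 to 2.27 CPM. Each of these genes was higher in both libraries. Mt3 had 0 and 2 UMIs in the Sox9-positive cells and Siglece had 0 UMIs in 432 such cells, which allows up to 0.694% of cells with a UMI. In the XX -KTS KO cells with Sox9, Cst9 had 2 and 0 UMIs. Aard stood at 5.80 and 7.12 CPM there, against 3.29 and 3.43 CPM in XX -KTS KO cells without Amh, Sox9 and Fst. In the same order, Spp1 was at 64.3 and 48.4 against 39.1 and 43.0 CPM, and Mro at 14.5 and 11.4 against 11.3 and 9.37 CPM. Of the thinned XY cells with Sox9, a mean of 42.7% held a UMI of Spp1 and 13.8% one of Mro, where the endothelial cells of the same libraries stood at 3.70% and 0%. The shares were smaller for Tesc (8.10%), Aard (6.51%) and Cst9 (2.89%). Without thinning 5.88% held a UMI of Cst9, so that its level came from few of the cells. The SD between the XY -KTS KO libraries was 17.5 points for Spp1 and 6.64 for Mro. With a gate of 1 UMI of Sox9 the mean shares with Spp1 and Mro were 27.9% and 9.33%, and with 3 UMIs 57.6% and 16.1%.

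Fst-positive cells were those with 2 or more UMIs of Fst, none of Amh and under 2 of Sox9. In the -KTS KO gonads they held Mro, Spp1, Tesc, Cst9 and Gstm6 at higher CPM than cells without Amh, Sox9 and Fst. The same held for Ptgds in each library, on 2 to 15 UMIs. The Fst-positive cells numbered 193 and 78 in XX and 127 and 81 in XY -KTS KO. Mro was at 40.3 to 49.3 CPM in the XX and 47.7 to 50.4 CPM in the XY libraries, against 1.67 to 4.89 CPM in Fst-positive XX WT cells. Spp1 was at 173 to 185 CPM in XX and 341 to 447 CPM in XY -KTS KO against 37.5 to 44.7 CPM in XX WT, and Tesc at 18.4 to 22.1 and 13.9 to 15.6 against 8.30 to 9.78 CPM. Compared with XX WT, Aard went the other way, at 5.19 to 7.59 and 1.89 to 6.17 CPM against 34.8 to 47.8 CPM. Cst9 did so too, at 3.79 to 7.98 and 2.52 to 6.58 CPM against 26.2 to 40.8 CPM. Yet in -KTS KO cells without Amh, Sox9 and Fst, Cst9 was lower still, at 0.357 to 0.841 CPM. Under the same gate, Mro and Spp1 were therefore higher and Aard and Cst9 lower than in XX WT, in each library. This is a description without a test. In XX -KTS KO, cells without Amh, Sox9 and Fst held more Mro UMIs, 755 and 472, than the Fst-positive cells, 202 and 78. For Spp1 the numbers were 2615 and 2165 against 928 and 274. In cells without Amh, Sox9 and Fst, Mro was at 11.3 and 9.37 CPM against 0.379 and 1.77 CPM in XX WT. Spp1 was at 39.1 and 43.0 CPM there against 6.44 and 4.83 CPM in XX WT. Fst itself was lower in XX -KTS KO (-5.19 ± 1.16, edgeR adjusted p = 0.0154). The gate therefore took a smaller share of somatic cells there, a mean of 3.13% against 40.6% in XX WT. In XY -KTS KO the mean share was 2.08%. Gated cells also held less Fst, a median of 3 or 4 UMIs in the -KTS KO libraries against 13 and 14 in XX WT.

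**Figure D4:**
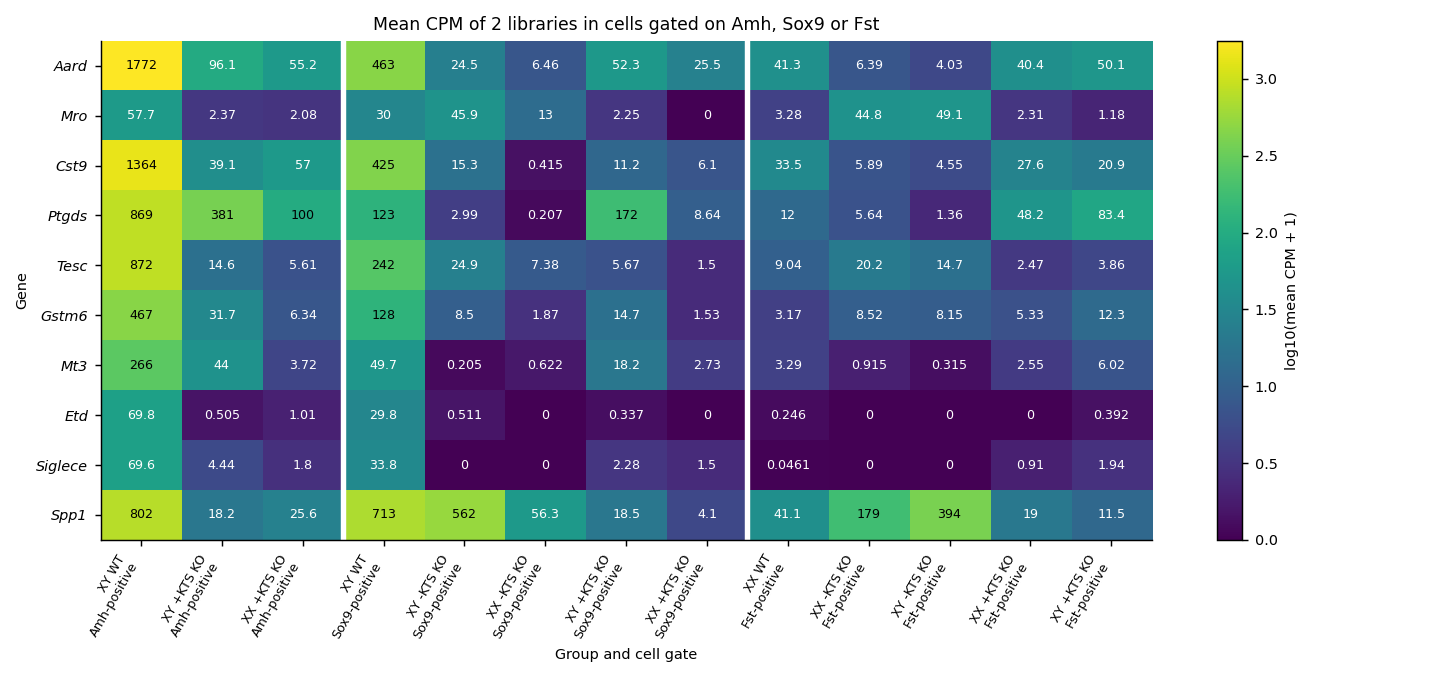
Mean CPM of 2 libraries for each gene in cells gated on at least 2 UMIs of Amh, on Sox9 without Amh, or on Fst without Amh and with under 2 UMIs of Sox9. Colour is log10 of the mean plus 1, and the number in each cell is the mean itself. Spp1 and Mro stay at 562 and 45.9 CPM in Sox9-positive XY -KTS KO cells, where Mt3 and Siglece are at or near 0.

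Siglece in XX +KTS KO was at lower CPM in each gate than in cells without Amh, Sox9 and Fst. Of its 242 and 225 UMIs, 198 and 187 were in the latter cells, at 2.73 and 2.87 CPM, which made up 76.5% and 80.6% of the somatic cells. The Amh-positive cells held 12 and 3 UMIs, at 2.51 and 1.08 CPM. Sox9-positive cells held 1 and 4 UMIs, at 1.26 and 1.75 CPM, and Fst-positive cells 7 and 1, at 1.26 and 0.555 CPM. The differences rest on few UMIs and were not tested. In XY +KTS KO, 107 of 211 and 239 of 298 UMIs were in cells without Amh, Sox9 and Fst, 65.1% and 80.5% of the somatic cells. In XY WT, by contrast, Siglece was at 67.0 and 72.2 CPM in Amh-positive cells and at 5.65 and 10.3 CPM in cells without Amh, Sox9 and Fst.

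Outside the somatic cells, Aard was also found in germ cells of every library. It was at 12.5 to 103 CPM in the germ cells, with 30.3% to 85.9% of them holding a UMI, whereas endothelial cells of the 10 libraries other than XY WT held 0 to 5.05 CPM. In XY WT the margin was smaller, with 41.2 to 63.4 CPM in germ cells and 15.9 to 17.7 CPM in endothelial cells. Germ cells held more Aard UMIs than the somatic cells in all 4 -KTS KO libraries, 612 and 1690 against 299 and 201 in XX and 1089 and 482 against 433 and 404 in XY. In XX WT they did so in replicate 1 (2964 against 1575) and not in replicate 2 (381 against 2465), and the germ cell level differed likewise, at 103 and 22.5 CPM. Gstm6 was at 5.35 to 15.8 CPM in germ cells, above the somatic cells in all libraries other than those of XY WT and XY +KTS KO replicate 1. Spp1 was at 3.56 to 59.5 CPM in germ cells, which overlaps its 0.367 to 28.9 CPM in endothelial cells, and reached 201 CPM in the few immune cells of one library, and Siglece was at 0 to 48.2 CPM in immune cells. In XX -KTS KO, Spp1 was at 46.7 and 46.4 CPM in cells without a UMI of any germ or immune marker against 22.7 and 19.0 CPM in XX WT.

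**Figure D5:**
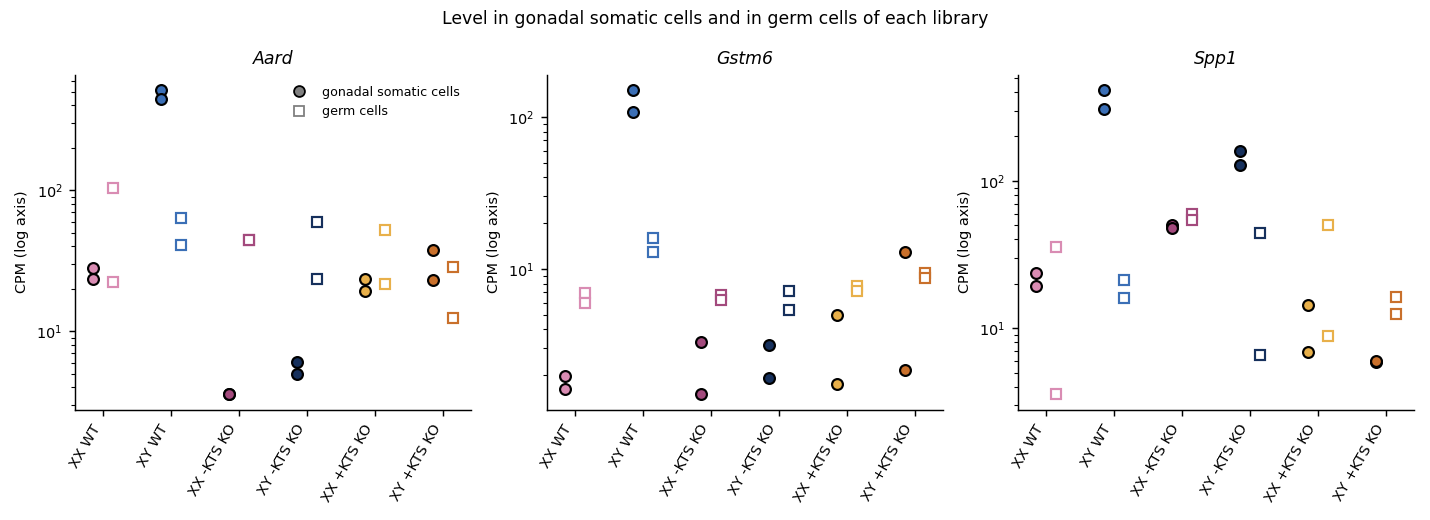
Level of Aard, Gstm6 and Spp1 in gonadal somatic cells (filled circles) and germ cells (open squares) of each library, in CPM on a log axis. Germ cells hold Aard at 12.5 to 103 CPM in every library, above the somatic cells of all 4 -KTS KO libraries.

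Of 14 other Sertoli genes, 1 rose and 3 fell in XX -KTS KO against XX WT, where 16% of all genes were called. Cbln4, a secreted protein of the C1q family, rose by 1.12 ± 0.27 (edgeR adjusted p = 0.0220), Gatm, which makes the creatine precursor, fell by 3.49 ± 0.49 (adjusted p = 0.00183) and Vnn1, a pantetheinase, by 1.23 ± 0.37 (adjusted p = 0.0476). Dhh, the Sertoli hedgehog ligand, was at 25 and 38 UMIs in XX WT and 2 and 0 in XX -KTS KO. In XX +KTS KO, where 4.94% of all genes were called, 5 rose, Amh, Dhh, Cbln4, Vnn1 and the receptor gene Erbb4, and Gatm fell. Amh rose by 5.36 ± 0.72 (adjusted p = 0.00474) and Dhh by 3.74 ± 0.37 (adjusted p = 0.00145). In XY +KTS KO against XY -KTS KO (21.6% of all genes called) 5 were higher (Amh, Dhh, Sox8, Gatm and Vnn1) and Cldn11, a tight junction gene, was lower by 2.72 ± 0.37 on the log2 scale (adjusted p = 0.000830). Sox9 did not pass in these 3 comparisons (-0.02, -0.08 and 0.62). The medians of the 14 were -0.16, 1.46 and 1.37 in the 3 comparisons, where those of all genes were 0.01, 0.00 and 0.01.

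Genes related to the members were followed by family, and their counts stand beside the shares of all genes called, 16% for XX -KTS KO, 4.94% for XX +KTS KO and 21.6% where the XY mutants are compared with each other. Of 9 prostaglandin genes tested, 4 rose in XX -KTS KO against XX WT, the synthases Ptgs1 (1.99 ± 0.42, adjusted p = 0.0118) and Hpgds (1.44 ± 0.43, adjusted p = 0.0482), the degrading enzyme Hpgd (1.46 ± 0.40, adjusted p = 0.0338) and the receptor Ptgdr (6.26 ± 1.48, adjusted p = 0.0267), and Ptges fell by 1.03 ± 0.24 (adjusted p = 0.0183). Hpgd fell by 2.00 ± 0.41 in XX +KTS KO (adjusted p = 0.0240) and was lower by 3.25 ± 0.43 in XY +KTS KO than in XY -KTS KO (adjusted p = 0.000671), where Ptgds was higher, Ptgs1 and Ptgdr were lower too and Ptgis was higher. Of the 3 other metallothioneins tested, Mt1 fell by 2.76 ± 0.55 (adjusted p = 0.00897) and Mt2 by 2.27 ± 0.67 (adjusted p = 0.0471) in XX -KTS KO and both were higher in XY +KTS KO than in XY -KTS KO (3.19 ± 0.56 and 2.49 ± 0.69). The third, Mt4, did not pass in either (-0.98 ± 1.56 and 2.23 ± 1.22).

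Of 5 cystatins tested, Cst12 fell by 6.92 ± 0.93 on the log2 scale in XX -KTS KO (adjusted p = 0.00142), from 11.7 and 12.7 CPM to 0.0481 and 0.160 CPM, and had 3 UMIs in XY -KTS KO against 12442 in XY +KTS KO, and none of the others passed. Of the 6 other mu-class transferases, Gstm7 rose in XX -KTS KO (0.66 ± 0.19, adjusted p = 0.0449), Gstm1 and Gstm2 fell in XX +KTS KO (-1.02 ± 0.16 and -1.09 ± 0.26), and Gstm1, Gstm4 and Gstm7 were lower in XY +KTS KO than in XY -KTS KO. Of 4 other Siglec genes tested, Siglecf (-1.51 ± 0.23) and Siglecg (-1.97 ± 0.48) fell in XX -KTS KO and Mag, which was lower in XY +KTS KO than in XY -KTS KO, rose (1.17 ± 0.35). None of the 4 rose in XX +KTS KO, where Siglecf fell by 1.53 ± 0.23 (adjusted p = 0.00728). Of 7 receptor genes for osteopontin, Cd44 fell by 3.03 ± 0.34 (adjusted p = 0.000692) and Itga4 by 1.37 ± 0.30 (adjusted p = 0.0143) in XX -KTS KO, where Spp1 rose, and Itga9 rose by 1.23 ± 0.25 (adjusted p = 0.0108). Cd44 also fell in XX +KTS KO, and Cd44, Itga4 and Itgav were higher in XY +KTS KO than in XY -KTS KO. No gene of the 8 lists differed between the sexes of a mutant by edgeR. Of 8 pre-granulosa genes, Foxl2, Fst and Runx1 fell in XX -KTS KO, Bmp2 fell in XX +KTS KO (-2.15 ± 0.41, adjusted p = 0.0192), and Foxl2 and Runx1 were higher in XY +KTS KO than in XY -KTS KO.

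The likeness of level profiles over the 12 libraries was measured by Pearson's r of log2(CPM + 1) among 6506 genes with at least 20 CPM in a group, as a description only, since the libraries share 6 groups and the 2 of XY WT weigh heavily for most of the genes. The closest gene was Cnp for Aard (0.98), Tpm1 for Mro (0.95), Nudt19 for Cst9 (0.99), Kcnk2 for Ptgds (0.97), Mapk13 for Tesc (0.99), Efhd2 for Gstm6 (0.98), Dusp15 for Mt3 (0.98), Lncbate6 for Etd (0.99), Dhh for Siglece (0.99) and Dok1 for Spp1 (0.99). Mro had the weakest match, followed by Aldh1a1 and Epha4 (0.94 for both). Gstm7 was the second for Spp1 (0.97), and only Etd had another member, Tesc, among its closest 3 (0.97).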

How the data were processed

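Gonads of 12 libraries (2 for each of 6 groups) were profiled with the 10x Genomics 3' droplet kit. The methods name version 3 and the labels version 2 of the kit. The authors deposited UMI counts per gene and barcode, made with Cell Ranger 6.0 on mm10 according to the processing notes, with no normalization. Replicates are the numbered libraries of a group, and p-values measure the spread between these. The members, gene lists and tests were chosen with earlier results of these data known.

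Barcodes were kept if 1000 or more genes were detected and mitochondrial UMIs made up no more than 10% (83513 of 103730), and the cells with the highest Scrublet score (scanpy 1.11.5), 0.8% per 1000 barcodes, were removed (6537). Cells with at least 3 detected markers of a lineage were set aside as that lineage (5 of 6 erythroid markers were used), and the rest, 66445, were called gonadal somatic cells. No clustering was used. Gates on Amh, Sox9 and Fst used at least 2 UMIs, and shares used cells thinned to 5000 UMIs.

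UMIs were summed per library and tested with edgeR 4.0.16 (TMM, filterByExpr, quasi-likelihood test, 6 groups in one fit, Benjamini-Hochberg over 17751 genes, threshold 0.05). All 10 members passed the filter, which their XY WT level alone could ensure, and Mt3, Etd and Siglece had 10 or more UMIs in 9, 4 and 6 of the 10 other libraries. The fit was also run on simulated data, with no outcome given here. Fold changes are log2 with standard errors. CPM use the plain UMI total, and scaling without TMM changed no call of the 10. Named genes were the members, genes of 8 fixed lists (other Sertoli, pre-granulosa, prostaglandin, cystatin, metallothionein, mu-class transferase, Siglec and osteopontin receptor genes), and up to 3 genes with the profile closest to each member. Alternatives were DESeq2 1.42.0, library totals without TMM, no filter, all kept cells, doublets kept, a lineage gate of 2 markers, a replicate block, and leaving out libraries. Leaving out single libraries and the restriction to cells without germ or immune marker UMIs were added after the data had been seen. Positions are from GENCODE (GRCm38) and promoters from RefSeq (GRCm38.p6). R 4.3.3 (limma 3.58.1) was used for fits, and pandas 2.3.3, scipy 1.17.1 and numpy 2.4.6 under Python 3.11.15 for the rest.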

Additional observations from a re-analysis of the deposited data

Results flagged for a closer look

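Spp1, Siglece and Mt3 lay on opposite sides of WT in XX and in XY, with no overlap between the libraries compared. The lower side in XY was fixed in part by the choice of genes high in XY WT. How many of all genes show such a pattern was not counted. In -KTS KO, Spp1 was at 1.26 on the log2 scale in XX and at -1.36 in XY. In +KTS KO, Siglece was at 3.92 in XX and at -3.26 in XY, and Mt3 at 0.48 in XX, which did not pass, and at -3.12 in XY. The differences were not tested, because the XY WT libraries had served to choose the genes.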

How the results depend on the processing

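Depth limited Etd and Siglece, which had 10 or more UMIs in 4 and 6 of the 10 libraries other than XY WT. Under single-library leave-outs, which assume that the lone library varies like the other groups, the members called ranged from 3 to 4 of 10 in XX -KTS KO against XX WT (6 with all libraries), from 1 to 2 in XX +KTS KO (1) and from 6 to 8 in XY +KTS KO against XY -KTS KO (7). In the comparisons that use XY WT, where the choice of genes fixed the counts and their range says nothing of stability, they ranged from 8 to 9 for XY -KTS KO, from 8 to 9 for XY +KTS KO and from 9 to 10 for XY WT against XX WT. They ranged from 0 to 0 between the sexes of either mutant, and the difference of the sex effects ranged from 0 to 1 (1 without XX +KTS KO replicate 1, Spp1). In XX +KTS KO, 3 passed by DESeq2 and 3 without the filter on low counts. Between the sexes of -KTS KO, and for the difference of the sex effects, 1 (Spp1) passed by DESeq2, 1 without the filter and 1 over all kept cells, against 0 by the main test; the cause was not tested. Of the single member values under all alternatives, 1224 were on the same side of the threshold or within the spread, 21 lost it, 17 gained it and 38 moved without a test. The 1224 include values that passed in neither fit and changed direction. Over all genes, the count in XX +KTS KO was 877, against 1502 by DESeq2, 1350 without the filter, 447 over all kept cells and 136 to 289 with single libraries left out. In XX -KTS KO it was 2843, 1463 over all kept cells and 1121 to 1409 with single libraries left out. In XY +KTS KO against XY -KTS KO it was 3826, and 1924 to 4828 with single libraries left out. It was 6 between the sexes of -KTS KO (18 by DESeq2, 12 without the filter, 9 over all kept cells) and 6 between those of +KTS KO (31, 19 and 10, and 6 to 125 with single libraries left out), and 0 for the difference of the sex effects (13, 1 and 1, and 0 to 7). Against XY WT it was 4172 in XY -KTS KO (2409 over all kept cells, 2109 to 2687 with single libraries left out) and 2206 in XY +KTS KO (706 to 3065), and it was 2415 in XY WT against XX WT (1203, and 802 to 1995).

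The median share of cells with a UMI was 76.3% in XY WT Amh-positive cells, 68.6% with a gate of 1 UMI and 87.0% without thinning. Without thinning it was 18.5% in XY +KTS KO and 9.84% in XX +KTS KO Amh-positive cells (8.42% and 3.20% with it) and 7.44% in Sox9-positive XY -KTS KO cells (2.65% with it). These are medians over the genes of means of 2 libraries. The median SD between libraries, with thinning, was 5.42 points in XY and 1.98 points in XX +KTS KO. Deviations of same-numbered libraries were at most weakly correlated over the genes (r from -0.203 to 0.156). This cannot show whether such libraries shared a batch or litter. The main fit did not pair the libraries. With a replicate block 7 members were called in XX -KTS KO (Ptgds added), 1 in XX +KTS KO, 8 in XY +KTS KO against XY -KTS KO (Etd added), 0 between the sexes of either mutant and 0 for the difference of the sex effects. Leaving out replicate 1 or 2 of every group left no residual degrees of freedom and gave values without a test.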
